A study of Rattus norvegicus with 6 samples.

Results

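Fibronectin (Fn1, ENSRNOG00000014288), osteonectin (Sparc, ENSRNOG00000012840), periostin (Postn, ENSRNOG00000012660) and thrombospondin 1 (Thbs1, ENSRNOG00000045829) were the 4 genes examined, of 30452 genes listed. They were chosen by their high counts, as the non-collagen matrix glycoproteins among the most abundant transcripts, and the choice set no numeric limit. Their high level is therefore a description and was not tested. The choice also gave the symbols, since the deposited tables list identifiers alone. RNA was sequenced from wild-type rat BMSCs (bone marrow mesenchymal stromal cells), plastic-adherent precursors of bone, cartilage and fat cells, in osteogenic culture. Cells of the control group were left untreated (blank, n = 3 libraries), and cells of the other group shared their culture with the AAT-ZCG hydrogel (n = 3 libraries), an enzyme-linked material developed for diabetic bone defects. Strain, age, culture time and the number of animals are not given in the sources used here. The comparison is of the whole material with no material, and no other hydrogel was analysed here.

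All 4 genes encode secreted glycoproteins of the extracellular matrix. Fibronectin is assembled by cells into fibrils and binds integrins through an arginine-glycine-aspartate site, which makes it a main adhesive substrate for stromal cells. The other 3 are matricellular proteins, which regulate how cells interact with the matrix more than they build it. SPARC binds collagen and calcium and is abundant in mineralising bone, periostin binds integrins and is made in periosteum and ligament, and thrombospondin 1 binds CD47 and CD36 and can activate latent TGF-beta.

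The libraries held 30601703 to 93728651 counts, with number 2 the deepest in each group. The 4 genes had between 326765 and 2039346 counts per library, which leaves a counting error of 0.070% to 0.175%. Differences of a few percent were therefore limited by the spread between libraries and not by depth. The labels do not say whether libraries of a group had separate cultures or donors, so the p-values rest on a spread between libraries that could be technical alone. Receptors, other matrix genes and cell type markers were not analysed here because the identifiers carry no names, and the labelled cell type was not checked against its markers for the same reason.

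As a check on identity, the gene length behind the authors' FPKM values was recovered from each gene's count, FPKM and library total. It was 8331 bp for Fn1, 5620 bp for Thbs1, 3350 bp for Postn and 2181 bp for Sparc. Each length was the same in all 6 libraries within 5.25e-11 of its value. Such constancy held for all 19429 genes with counts in 2 or more libraries, with a largest relative difference of 8.79e-07. It follows from how FPKM was computed and does not bear on identity. The order of these lengths is the order of the 4 proteins by size, with fibronectin the longest chain and SPARC the shortest. This check compares lengths only, and the assignment of symbols was not tested by sequence.

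Per length, Sparc was the most abundant of the 4 transcripts in every library. In control cells its level was 5428 ± 60.3 FPKM (SD, n = 3), followed by Postn at 3891 ± 13.0 FPKM, Thbs1 at 2945 ± 93.7 FPKM and Fn1 at 2269 ± 28.4 FPKM. No neighbours in this order overlapped among the control libraries. With hydrogel the order was no longer the same. Sparc was at 6511 ± 163 FPKM, Postn at 3548 ± 384 FPKM, Fn1 at 3149 ± 206 FPKM and Thbs1 at 2933 ± 72.4 FPKM. Fn1 thus moved from the lowest of the 4 to a level above Thbs1 in all 3 hydrogel libraries, and above Postn in library 1. The ranges of Postn and Fn1 overlapped across the hydrogel libraries. Among all genes ranked by FPKM, Fn1 stood at place 21 in each control library and at places 9, 12 and 13 with hydrogel. Sparc stayed at place 5 or 6 throughout, Postn between 8 and 12, and Thbs1 between 13 and 16. By counts, which favour long genes, all 4 stood between places 2 and 8 in every library, with Fn1 ahead of the other 3.

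**Figure D1:**
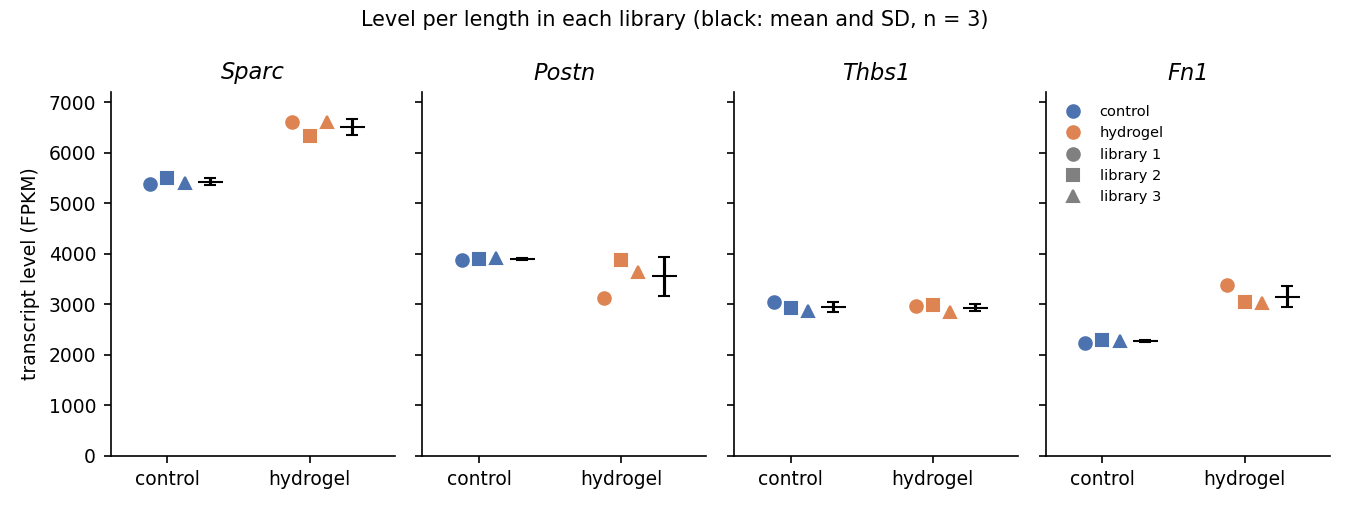
Transcript level per length (FPKM, linear axis from 0) of each gene in the 6 libraries, with the mean and SD of each group (n = 3) in black. The 3 hydrogel libraries lie above the 3 controls for Sparc and Fn1, whereas for Postn hydrogel library 1 is low at 3127 FPKM and library 2, at 3878 FPKM, is just below the lowest control.

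Start regions are shown for the 3 genes matched in the RefSeq promoter table (build GRCr8). Fn1 had no match there. Each covers 150 bases, from 100 before to 50 after the annotated start. Sparc lies on the minus strand (chr10:40038767-40038916), and Postn (chr2:140677961-140678110) and Thbs1 (chr3:125510150-125510299) on the plus strand. Capitals mark matches, on either strand, to the TATA box TATAAA, the CCAAT box, the GC box GGGCGG, the AP-1 motif TGANTCA and the motif GGAATG that TEAD factors read.
Sparc: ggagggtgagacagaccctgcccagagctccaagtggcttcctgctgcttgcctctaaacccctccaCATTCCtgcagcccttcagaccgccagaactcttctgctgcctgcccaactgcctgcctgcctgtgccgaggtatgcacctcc
Postn: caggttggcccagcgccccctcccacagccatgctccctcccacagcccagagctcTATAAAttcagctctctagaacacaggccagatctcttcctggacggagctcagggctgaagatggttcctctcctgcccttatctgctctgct
Thbs1: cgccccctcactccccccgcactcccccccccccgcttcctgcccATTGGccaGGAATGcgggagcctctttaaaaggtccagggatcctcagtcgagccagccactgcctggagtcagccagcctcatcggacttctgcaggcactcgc

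The Postn window holds TATAAA 44 bases before the start, a motif found in 7.30% of the 27457 rat windows of this length. Only the exact letters TATAAA were searched, so variants of the TATA box in any window would be missed. The Sparc and Thbs1 windows each hold GGAATG, 33 bases before the start on the opposite strand in Sparc and 47 bases before it in Thbs1, and 7.07% of all windows hold it. The Thbs1 window also holds CCAAT on the opposite strand, as do 21.8% of windows. Neither GGGCGG (26.7% of windows) nor TGANTCA (3.43%) occurs in the 3 windows. Whether any of these motifs bears on the levels measured was not tested. These matches describe letters and not binding.

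The design asks which transcripts differed when stromal cells were grown with the hydrogel. Fn1 and Sparc rose, and Postn and Thbs1 did not pass the test. Since RNA was pooled from whole cultures, a change in the number of cells of a type and a change in RNA per cell cannot be told apart. The levels compared below are library-scaled counts (CPM, TMM), a scaling that assumes most genes to be unchanged.

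Fn1, the adhesive fibril protein, was measured at 18328, 18969 and 18934 CPM in control libraries 1 to 3. In the hydrogel libraries it was at 28393, 25619 and 25425 CPM. All 3 hydrogel libraries lay well above all controls, with library 1 the highest. The increase was 1.41-fold (95% interval 1.33 to 1.50), or 0.50 ± 0.039 (SE) on the log2 scale (edgeR quasi-likelihood test, adjusted p = 9.74e-08). Fn1 gained 7736 CPM, the largest shift of the 4 genes in counts, which favour long transcripts. Per length Sparc gained more, 1083 FPKM against 880 FPKM for Fn1.

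Sparc, the collagen-binding protein of mineralising matrix, was measured at 11547, 11911 and 11752 CPM in the controls. With hydrogel it was at 14494, 13975 and 14530 CPM. The groups did not overlap, and the hydrogel libraries were close to each other, with library 2 the lowest. The increase was 1.22-fold (95% interval 1.17 to 1.28), or 0.29 ± 0.032 (SE) on the log2 scale (edgeR adjusted p = 3.63e-06).

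Postn, the periosteal integrin ligand, was at 12775, 12955 and 13045 CPM in the controls, a spread of 1.06% of the mean. With hydrogel it was at 10539, 13165 and 12299 CPM. Libraries 1 and 3 lay below every control. The place of library 2 depended on the scaling. It lay above the controls in TMM-scaled CPM, but in FPKM, at 3877.5 against a lowest control of 3878.1, all 3 hydrogel libraries lay below the controls, library 2 only barely. Its log2 difference was -0.11 ± 0.056 (SE, edgeR adjusted p = 0.154), with a 95% interval for the fold of 0.855 to 1.01. The value depended on single libraries. Without hydrogel library 2 the log2 fold change was -0.18 and passed the test (edgeR adjusted p = 0.00924), and without hydrogel library 1 it was -0.024 (adjusted p = 0.586). In the shallower libraries 1 and 3 of each group alone it was -0.18 (adjusted p = 0.0584). With no filter on low counts the value hardly moved, at -0.12. Its SE fell to 0.033 there, and with that it passed (edgeR adjusted p = 0.00264).

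Thbs1, the CD47 and CD36 ligand, was at 16836, 16353 and 16039 CPM in the controls and at 16737, 17022 and 16165 CPM with hydrogel. The ranges largely overlapped. Its log2 difference was 0.020 ± 0.033 (SE, edgeR adjusted p = 0.670), and the 95% interval for the fold ran from 0.967 to 1.06. The sign was negative when libraries were scaled by totals alone (-0.0059).

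**Figure D2:**
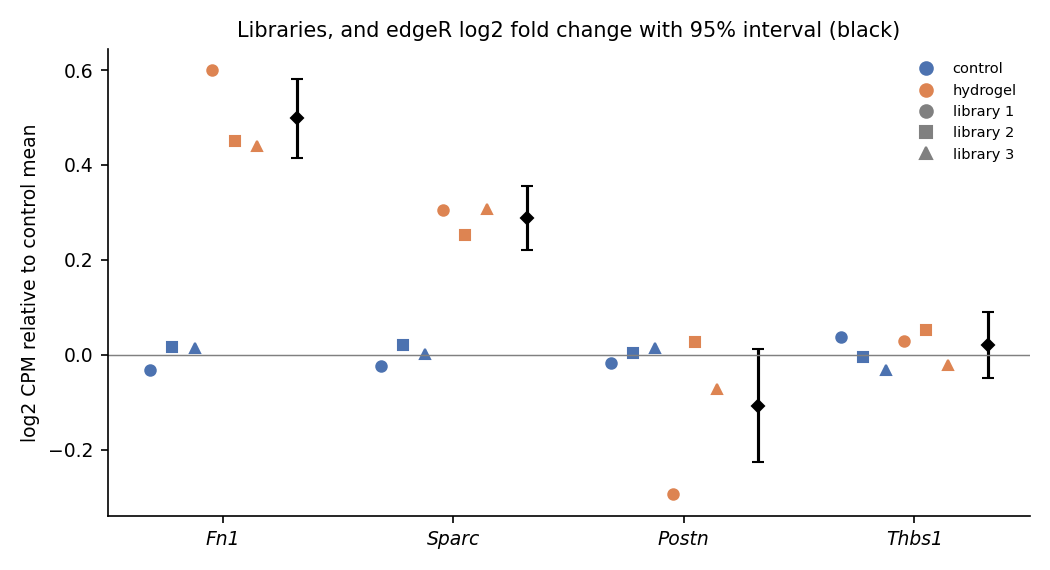
Log2 CPM of each library relative to the mean of the 3 controls, by gene, with the edgeR log2 fold change and its 95% interval in black. Fn1 (0.50) and Sparc (0.29) lie above 0 in all 3 hydrogel libraries, and Postn is spread from below to above 0 on this scale. The intervals of Postn and Thbs1 span 0.

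These 2 rises among 4 genes stand against a broad difference between the groups. Of the 14715 genes tested, 34.5% were called at an adjusted p under 0.05, 17.5% higher and 17.1% lower with hydrogel, and the share was 73.9% among the 88 genes with a mean of 1000 CPM or more. The share called here, 2 of 4, lies above that of all genes tested and below that of the abundant genes. With 4 genes it is too coarse to be set apart from either. The groups did not overlap for Fn1 and Sparc, as for 47.3% of all genes tested. None of the 4 genes changed by over 2-fold, where 5.73% of tested genes were called. In absolute log2 fold change Fn1 ranked 19th of the 88 abundant genes, Sparc 44th, Postn 66th and Thbs1 81st. At the median of that ranking the absolute log2 value was 0.29, the size measured for Sparc, and the median signed value of the 88 was 0.0047. Of the 88, 35 rose and 30 fell.

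**Figure D3:**
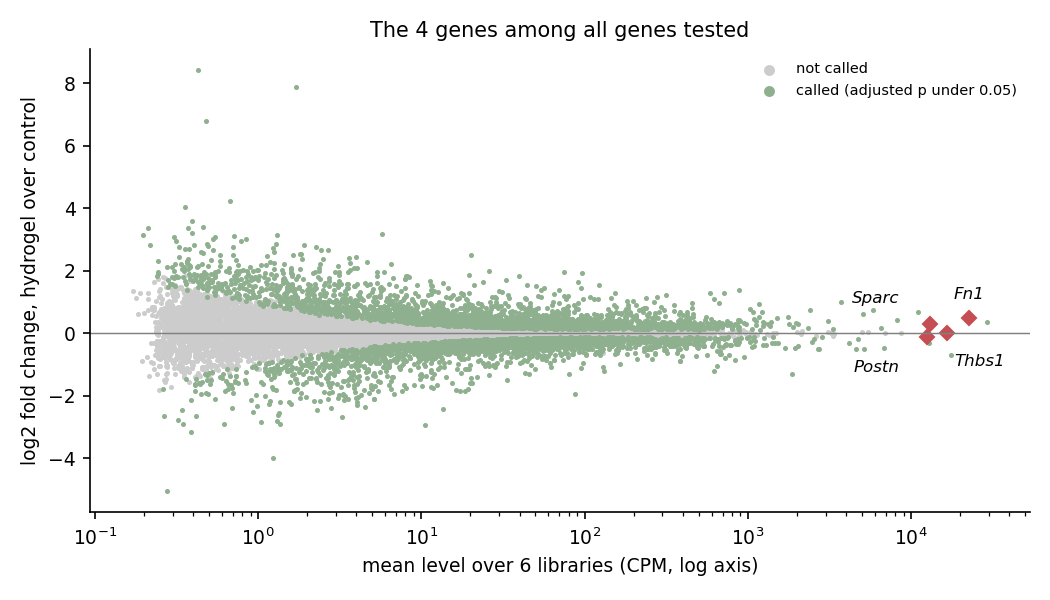
Log2 fold change against mean level (CPM, log axis) for the 14715 genes tested, with called genes in green and the 4 glycoprotein genes as red diamonds. All 4 lie at the far right, at small fold changes between -0.11 (Postn) and 0.50 (Fn1).

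Ratios between the genes within a library do not depend on how libraries are scaled, and they show how the balance of these transcripts differed. The Fn1 to Thbs1 ratio per length was 0.771 ± 0.033 in controls and 1.07 ± 0.065 with hydrogel (SD, n = 3), crossing 1 in every hydrogel library. The crossing depends on the gene lengths behind FPKM, since the ratio of counts was above 1 in the controls too (1.09, 1.16 and 1.18). Per length, the Fn1 to Postn ratio was 0.583 ± 0.0060 in controls. It was 1.08, 0.783 and 0.831 in hydrogel libraries 1 to 3, all above the controls, and was the ratio that differed most, by 1.53-fold. The Sparc to Postn ratio differed by 1.32-fold and the Sparc to Thbs1 ratio by 1.20-fold, both higher with hydrogel. The Fn1 to Sparc ratio was higher as well, at 0.418 ± 0.0033 in controls and 0.484 ± 0.028 with hydrogel, a 1.16-fold difference. For these 5 ratios the groups did not overlap, and an exact permutation test (two-sided) gave p = 0.1 for each, adjusted to 0.12 over the 6 ratios. With 3 libraries a group this test cannot go below 0.1. The Postn to Thbs1 ratio, 1.32 ± 0.046 in controls and 1.21 ± 0.13 with hydrogel, overlapped between the groups (exact permutation p = 0.3, adjusted 0.3). It was low in hydrogel library 1 alone, at 1.06. The log2 difference of this ratio was -0.13, and -0.038 without that library.

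**Figure D4:**
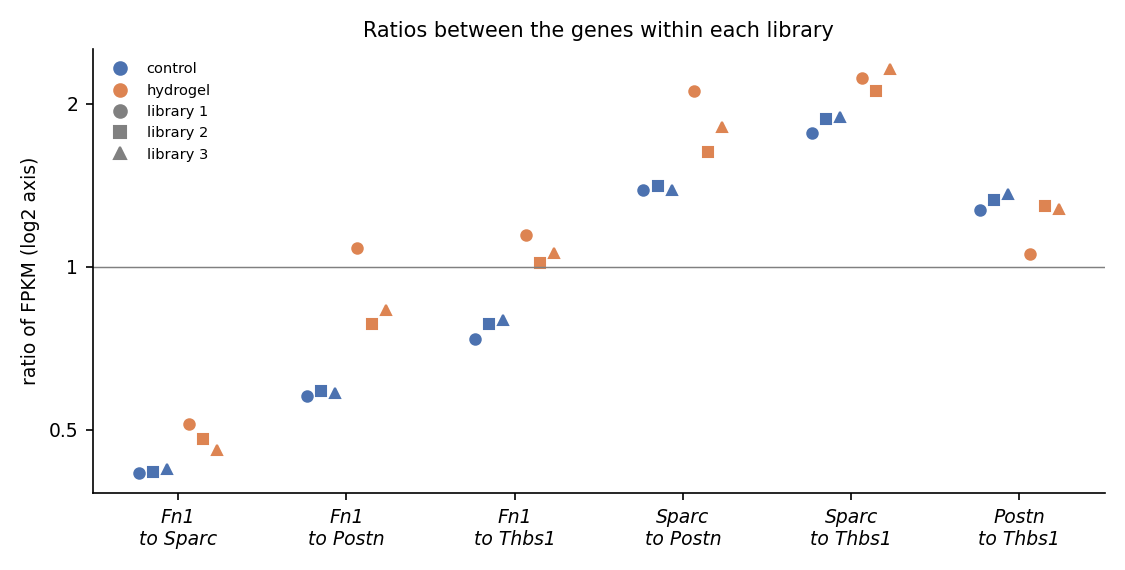
Ratio of FPKM between each pair of genes within each library (log2 axis, line at 1). Hydrogel libraries lie above controls in the 5 of 6 pairs that hold Fn1 or Sparc, and the Fn1 to Thbs1 ratio crosses 1.

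The summed share of the 4 genes in all counts was 6.03% ± 0.035 (SD, n = 3) in control cells and 6.88% ± 0.096 with hydrogel. Most of the gain was in Fn1, whose long transcript weighs heavily in counts. As a share of summed FPKM, which removes length, the 4 genes held 3.47% ± 0.035 and 3.71% ± 0.049. This sum describes genes chosen for their level and was not tested.

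Libraries within a group differed more with hydrogel than without, mainly in pairs with hydrogel library 1. Over all genes, the chi-square per degree of freedom was 16.5 for hydrogel library 1 against 2 and 10.8 against 3. It was 7.32 between hydrogel libraries 2 and 3, inside the range of the control pairs (6.17 to 8.37). The coefficient of variation of Postn was 11.2% with hydrogel and 1.06% in controls, and that of Fn1 was 6.27% and 1.92%. Sparc (2.17% and 1.55%) and Thbs1 (2.62% and 2.45%) varied about as much in either group. Among the 88 abundant genes the median was 4.38% with hydrogel and 2.42% in controls. With hydrogel, Postn had the 11th highest value. Fn1 had the 28th, below the upper quartile of 7.22%. Hydrogel library 1 had the highest Fn1 and the lowest Postn. Of the 65 abundant genes that were called, hydrogel library 1 lay farthest from the control mean in 52 and library 2 nearest to it in 41. Library 2 is also the deepest of its group, and the part of depth in this order was not tested. The Fn1 log2 fold change was 0.44 without hydrogel library 1 (edgeR adjusted p = 3.73e-11), so its rise did not rest on that library.

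The gene whose levels followed those of Fn1 most closely over the 6 libraries was ENSRNOG00000031766 (Pearson r = 0.999 among 1727 candidates of at least 100 CPM), with an implied length of 1143 bp. It rose by a log2 of 0.17 (SE 0.033, edgeR adjusted p = 9.45e-04), a smaller change of the same shape. The gene most like Sparc was ENSRNOG00000030371 (r = 0.998), of 684 bp, which rose by a log2 of 0.44 (SE 0.035, adjusted p = 1.38e-07). As the libraries form separate groups, such values mainly reflect the group difference, and 293 candidates exceeded 0.95 for Fn1 and 267 for Sparc. Few genes followed the uneven pattern of Postn or the flat one of Thbs1, with 8 and 2 candidates above 0.95. These values are descriptions over 6 libraries that share their scaling, and the identifiers were not matched to names.

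**Figure D5:**
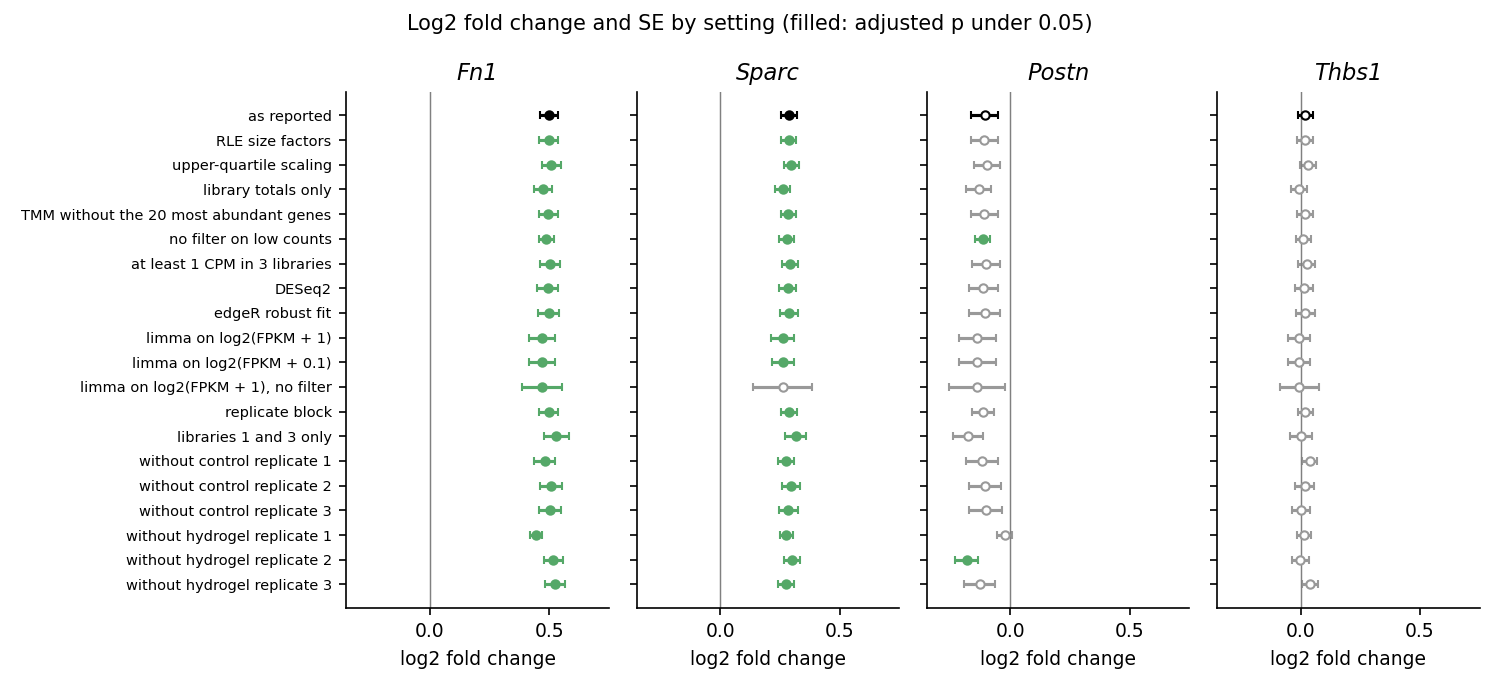
Log2 fold change with its SE for each gene under the reported fit (black) and 19 alternatives, filled where the adjusted p was under 0.05. Fn1 is filled in all 19 and Sparc in all but the unfiltered FPKM fit, while Postn is filled in 2 and Thbs1 in none.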

How the data were processed

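RNA sequencing of 6 libraries was analysed, 3 per group by the sample titles. The authors deposited raw counts per gene and, per the file headers, FPKM values for each library, with replicates not pooled. The deposited FPKM equal the counts divided by library total and by a gene length, which gave the lengths used here. The aligner, counting tool and strandedness are not given in the sources used here. The submitters' processing notes name the mouse builds GRCm38 and mm10 although the identifiers are those of rat, so gene coordinates are printed only for RefSeq sequences. Genes sharing reads with related or overlapping genes were not examined.

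Counts were tested with edgeR 4.0.16 in R 4.3.3 (filterByExpr defaults, TMM, quasi-likelihood F test, group as the only term, Benjamini-Hochberg over 14715 genes). On simulated counts, limits were set on the recovery of planted changes and on bias, and none on false calls. Calls used an adjusted p under 0.05 alone. The separate count of genes over 2-fold also required a fold above 2 or below 0.5. Standard errors were derived from the log2 fold change and F. Ratios were tested by exact permutation in scipy 1.17.1. Alternatives were DESeq2 1.42.0, limma 3.58.1 on log2(FPKM + 1) or log2(FPKM + 0.1) with FPKM of at least 1 in 3 libraries, other scalings and filters, a replicate block and leaving out libraries. Replicates differed beyond counting noise (chi-square per degree of freedom 6.17 to 16.5). The genes, lists and tests were chosen with earlier results of these data known. Named genes are the 4 genes and, for each, the gene with the nearest pattern, printed only where it rose or fell. The gene lists and markers chosen for comparison were not analysed, since 0 identifiers could be matched to symbols by the tables.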

Additional observations from a re-analysis of the deposited data

How the results depend on the processing

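Fn1 kept its direction and call in all 19 alternatives, with log2 fold changes from 0.44 to 0.53 and adjusted p up to 0.0160. Sparc kept its direction in all 19 (0.26 to 0.32) and its call in 18, with limma on unfiltered log2(FPKM + 1) giving 0.26 (adjusted p = 0.220). Postn stayed negative in all 19 and passed in 2, at -0.12 with no filter on low counts and at -0.18 without hydrogel library 2. Leaving out 1 library moved it from -0.18 to -0.024. Thbs1 passed in none and turned negative in 5, at -0.0059 with library totals only, -0.0058 in each of the 3 limma fits on FPKM and -0.00060 without hydrogel library 2. Its leave-one-out range was -0.00060 to 0.038. Where leaving out a library left 2 in a group, the spread was pooled over groups.

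Genes called at any fold ranged from 3405 to 5335 against 5079. Over 2-fold, 843 genes were called, but 190 with limma on log2(FPKM + 1), 425 with log2(FPKM + 0.1) and 181 unfiltered; the cause was not tested. The log2 differences of the 6 ratios kept their sign and moved by less than the pooled within-group SD of each, which was wide for Postn. Leaving out 1 library gave -0.19 to -0.038 for Postn to Thbs1 (-0.13 with all), 0.47 to 0.70 for Fn1 to Postn and 0.30 to 0.49 for Sparc to Postn. The summed share rose by 0.847 percentage points in counts and 0.240 in FPKM, which removes gene length.

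Same-numbered libraries' deviations correlated at 0.022, 0.051 and 0.013, each the highest for its number, and no label pairs them. With the replicate block the log2 fold changes were 0.50 (Fn1), 0.29 (Sparc), -0.11 (Postn, adjusted p = 0.0725) and 0.020 (Thbs1), 5246 genes were called, and no call of the 4 genes changed. For ratios the block gave an exact sign-flip p of 0.25, the smallest for 3 pairs.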
